A study of Ovis aries with 14 samples.

Results

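Genes of cholesterol uptake and synthesis were examined in the ovary of Suffolk sheep exposed to testosterone before birth. The set has 7 genes by name: SCARB1, HMGCS1, IDI1, SQLE, FDFT1, LSS and INSIG1. Of these, 6 were listed in each of the 3 deposited tables, which together hold 17323 genes, and FDFT1 was not measured by name in any of them. Whole wild-type ovaries, frozen fresh, were profiled by RNA sequencing in 14 libraries. At day 90 of gestation there were 3 ovaries from fetuses whose mothers received testosterone and 3 control ovaries. At 2 years of age there were 4 ovaries from ewes exposed to testosterone before birth and 4 control ovaries. Treated mothers were injected into the muscle with testosterone propionate in cottonseed oil, 2 times a week between days 30 and 90 of gestation. The fetuses were thus sampled at the end of the exposure and the adults long after it. What the control mothers received is not given in the sources used here.

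Ovarian steroid hormones are made from cholesterol, which a cell takes up from lipoproteins or makes from acetyl-CoA through the mevalonate pathway. SCARB1 encodes the scavenger receptor that takes up cholesteryl ester from high-density lipoprotein, HMGCS1, IDI1, SQLE and LSS encode successive enzymes of synthesis, and FDFT1 encodes squalene synthase, the step before SQLE. INSIG1 encodes the endoplasmic reticulum protein that holds SREBP, the transcription factor of these genes, inactive when sterol is plentiful. The corpus luteum, which forms from the follicle after ovulation, is known for its high uptake of lipoprotein cholesterol for progesterone.

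The recovered depth was 22.6 to 33.4 M reads per library. The labels do not relate samples to mothers or litters, so the p-values cover the spread among the ovaries sequenced and nothing wider. In bulk tissue, fewer cells of a type and less RNA per cell cannot be told apart. The labelled tissue was checked against marker lists. Germ cell genes were present in the fetal ovaries, with 5 of 9 listed and sums of 7282 to 11721 normalized counts with testosterone and 8984 to 15336 in controls. Theca genes were listed as 5 of 5 at both ages and granulosa genes as 5 of 8, without AMH, CYP19A1 and FOXL2. A listed name alone does not show that the cell type was present. Among adult ovaries 3 stood apart. Testosterone 4, testosterone 7 and control 6 had 110586, 61705 and 94884 normalized counts of OXT, a hormone gene strongly expressed by the ruminant corpus luteum, against 22.3 to 80.2 in the other adult ovaries. The differences of the set in adults and between ages are given with and without these 3 libraries.

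The first question was whether testosterone changed these genes in the fetal ovary at the end of the exposure. None of the 6 genes did so past the threshold, and in none did the testosterone and control groups separate. SCARB1, the lipoprotein receptor, had 1589, 1533 and 1615 normalized counts in the 3 testosterone ovaries and 1512, 1501 and 1556 in the 3 controls. Testosterone minus control was 0.05 ± 0.083 on the log2 scale (SE, n = 3 each, 95% interval -0.14 to 0.24, limma adjusted p = 0.859). The groups overlapped. The highest of the 6 fetal values was 1.08 times the lowest, and 0.297% of 16480 genes varied less by this ratio, whose median over genes was 1.47.

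For the early enzymes, HMGCS1, which makes HMG-CoA, had 3200, 3936 and 3643 normalized counts with testosterone and 3722, 3554 and 4119 in controls. IDI1, the isomerase that supplies dimethylallyl diphosphate, had 2326, 2091 and 1837 with testosterone and 1955, 2309 and 2017 in controls. Both ranges overlapped, with log2 differences of -0.08 ± 0.103 for HMGCS1 and -0.01 ± 0.115 for IDI1 (SE, limma adjusted p = 0.812 and 0.986). SQLE, squalene epoxidase, had 2679, 2572 and 2563 normalized counts with testosterone and 2528, 2632 and 3321 in controls. Control 3 alone was high, and the log2 difference was -0.11 ± 0.114 (SE, limma adjusted p = 0.772). LSS, lanosterol synthase, had 954, 1250 and 1107 with testosterone and 1209, 1155 and 1246 in controls, a log2 difference of -0.13 ± 0.119 (SE, limma adjusted p = 0.729).

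INSIG1 had the largest fetal difference of the 6, with 930, 740 and 624 normalized counts in testosterone ovaries and 818, 892 and 878 in controls. Testosterone 1 was above all controls and testosterone 2 and 3 were below them. On the log2 scale this gave -0.19 ± 0.152 (SE, 95% interval -0.54 to 0.16, limma adjusted p = 0.695). Over the set, limma called 0 of 6 genes, against 0.0182% of all genes tested, and 0 of 6 had an unadjusted p under 0.05, against 9.76% of all genes. edgeR and DESeq2 also called 0 of 6, against 0.0242% and 1.59% of all genes. The groups did not overlap for 0 of 6, against 16.3% of all genes. The log2 difference was below 0 for 5 of 6 genes, against 53.4% of all genes, with a median of -0.10 against -0.02. Exact two-sided permutation tests of the single genes gave p between 0.2 and 1, where 0.1 is the smallest that 3 against 3 allow.

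**Figure D1:**
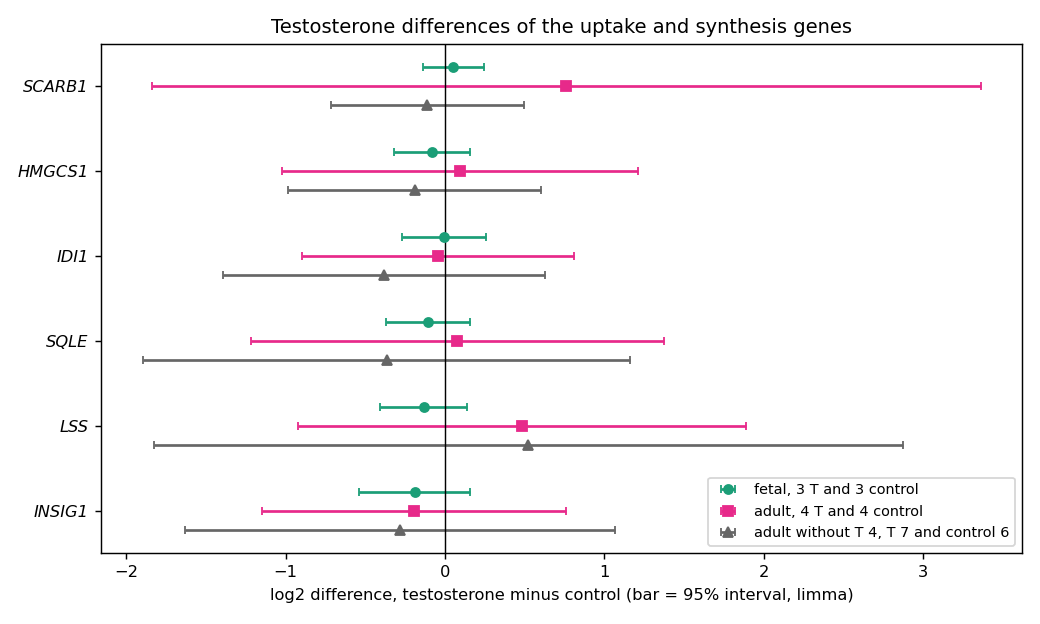
Log2 difference of testosterone minus control with its 95% interval (limma) for each of the 6 measured genes, in the fetal ovaries, in the 8 adult ovaries, and in the adult ovaries without testosterone 4, testosterone 7 and control 6. The fetal intervals are narrow around 0, the adult interval of SCARB1 runs from -1.84 to 3.36, and without the 3 libraries it runs from -0.72 to 0.50.

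The rest of the pathway in the fetal ovary gave no call by limma either, with 0 of 15 other synthesis enzymes, 0 of 9 genes of SREBP control, 0 of 9 of lipoprotein uptake and lysosome, 0 of 11 of efflux and storage, and 0 of 7 of cholesterol use for steroids past the threshold. Of these 51 genes, 5 had an unadjusted p under 0.05, against 9.76% of all genes. edgeR called 0, and DESeq2 called 2, TM7SF2 higher and CYP11A1 lower with testosterone, where it called 1.59% of all genes. The genes of smallest p in each group were as follows. TM7SF2, a sterol reductase, had 811, 952 and 846 normalized counts with testosterone and 591, 577 and 699 in controls. The groups did not overlap, and the log2 difference was 0.48. STARD4, a sterol carrier, differed by -0.23 and RNF139, a sterol-sensing ubiquitin ligase, by 0.13.

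Among uptake genes, NPC1, which exports lysosomal cholesterol, differed by -0.36. APOE, a lipid-carrying apolipoprotein, differed by 0.38 and SOAT2, a cholesterol esterifying enzyme, by 0.58. Of the genes that use cholesterol, CYP11A1, the side-chain cleavage enzyme, differed by -2.28 and HSD3B1, which makes progesterone, by -0.31. Across the genes of smallest p the limma adjusted p was 0.223 at the lowest, for CYP11A1. Smooth muscle markers were higher with testosterone in 7 of 7 genes, with sums of 48554 to 74906 normalized counts against 33188 to 44832 in controls. Granulosa markers were higher in 5 of 5, with sums of 3194 to 3520 against 2322 to 2793 in controls, and germ cell markers had lower means in 5 of 5, with the overlapping sums given above. CYP17A1, the androgen-making enzyme of theca, had a log2 difference of -2.90 (limma adjusted p = 0.237), with 4 of 5 theca markers below 0. The part of these markers in the values of the cholesterol genes was not tested.

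In the adult ovary the question was whether a difference was present 2 years later, and none of the 6 genes passed the threshold. SCARB1 had 28985, 2039, 3007 and 30449 normalized counts in testosterone ovaries 4 to 7, and 2875, 2834, 34148 and 2349 in control ovaries 4 to 7. The values formed a high set of testosterone 4, testosterone 7 and control 6, and a low set of the other 5 ovaries, so the groups overlapped fully. The log2 difference was 0.76 ± 1.15 (SE, n = 4 each, 95% interval -1.84 to 3.36, limma adjusted p = 0.9999). Without the 3 high ovaries it was -0.11 ± 0.242 (SE, 2 testosterone against 3 control, 95% interval -0.72 to 0.50).

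HMGCS1 had 3319, 1215, 1632 and 3783 normalized counts in testosterone ovaries 4 to 7 and 1177, 1633, 4661 and 2155 in controls 4 to 7. The same 3 ovaries were highest, and the log2 difference was 0.09 ± 0.493 (SE). SQLE had 1401, 407, 715 and 1633 with testosterone and 338, 793, 1590 and 1263 in controls. The 3 ovaries were again highest, with control 7 close below them, and the log2 difference was 0.08 ± 0.573 (SE). Without those ovaries the log2 differences turned to -0.19 ± 0.317 for HMGCS1 and -0.37 ± 0.610 for SQLE (SE).

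LSS had 1093, 759, 1056 and 1307 normalized counts in testosterone ovaries 4 to 7 and 185, 723, 1241 and 1801 in controls 4 to 7. Control 4 was far below and control 7 above every other ovary, and the log2 difference was 0.48 ± 0.620 (SE). Without the 3 ovaries high in OXT it was 0.52 ± 0.939 (SE), and leaving out control 4 alone turned it to -0.18. That ovary also had 278273 normalized counts of MYH11, a smooth muscle myosin, against 21146 to 111582 in the other adult ovaries. It had 95832 of DES, another smooth muscle marker, against 2153 to 8133. Control 4 was the lowest adult ovary in HMGCS1, SQLE, LSS, IDI1 and INSIG1. It also stayed among the controls in each estimate without the 3 ovaries high in OXT. The part of its muscle markers in these results was not tested.

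IDI1 had 2005, 847, 1079 and 1832 normalized counts in testosterone ovaries 4 to 7 and 841, 1153, 1951 and 2002 in controls 4 to 7, a log2 difference of -0.04 ± 0.376 (SE). INSIG1 had 546, 232, 400.0 and 400.4 with testosterone and 221, 349, 687 and 659 in controls, a log2 difference of -0.19 ± 0.421 (SE). In both genes each group had low and high ovaries and the ranges overlapped. Without the 3 ovaries high in OXT the log2 differences were -0.38 ± 0.403 for IDI1 and -0.28 ± 0.539 for INSIG1 (SE). For all 6 genes the limma adjusted p was 0.9999. Limma called 0 of 6, against 0.0127% of all genes tested, and 0 of 6 had an unadjusted p under 0.05, against 0.806%. edgeR and DESeq2 also called 0 of 6, against 0.00635% and 0.0444% of all genes. The groups did not overlap for 0 of 6, against 0.704% of all genes. Without the 3 high ovaries limma again called 0 of 6, against 0.00643%. The log2 difference was above 0 in 4 of 6 genes against 49.1% of all genes. Exact two-sided permutation tests of the single genes gave p between 0.657 and 0.914, with 0.0286 the smallest that 4 against 4 allow.

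The authors deposited the adult data as a pair of tables, the first with numbers 4, 5 and 6 of both groups and the second with testosterone 5, 6 and 7 against controls 4, 6 and 7. They share 4 libraries and are not independent. SCARB1 differed by -0.22 on the log2 scale in the first table and by -0.10 in the second, each of which holds 1 high ovary a group, against 0.76 with all 8 ovaries. The other log2 differences in the first and second table were -0.16 and -0.22 for HMGCS1, -0.02 and -0.32 for IDI1, -0.02 and -0.17 for SQLE, 0.78 and 0.45 for LSS, and -0.01 and -0.47 for INSIG1. Limma called 0 of 6 genes in the first table, against 0.00631% of all genes, and 0 of 6 in the second, against 0.00623%. At an unadjusted p under 0.05 there were 0 of 6 in both, against 0.637% and 0.486% of all genes. edgeR called 0 of 6 in both, against 0% of all genes, and DESeq2 0 of 6, against 0.0252% and 0.0311%. In each table DESeq2 gave no p-value for 1 of the 6, which it therefore could not call. SCARB1 has no p-value in either of the authors' deposited tables for adults, where 318 and 332 genes are so listed, and the log2 fold changes given there are -0.24 and -0.16.

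Of the other cholesterol genes, 0 of 50 measured in all 8 adult ovaries passed the limma threshold in the testosterone comparison, 0 of 50 had an unadjusted p under 0.05, and edgeR and DESeq2 called 0 of 50. With all 8 ovaries the genes of smallest p were TM7SF2 with a log2 difference of 0.99 and PMVK, a mevalonate pathway kinase, with 0.33. In SREBP control they were SREBF1, which encodes the lipogenic SREBP, with -0.27 and MBTPS2, an SREBP-cleaving protease, with 0.18. In uptake VLDLR, the receptor of very-low-density lipoprotein, had -0.61. In efflux and storage they were NR1H2, a sterol-sensing nuclear receptor, with -0.24 and ABCA1, a cholesterol exporter, with 0.53. In steroid use they were HSD3B1 with 1.60 and FDXR, which passes electrons to CYP11A1, with 0.46.

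In the first adult table the genes of smallest p included GGPS1 at 0.17, SCAP at 0.40, MBTPS2 at 0.23, VLDLR at -0.93, ABCA1 at 0.52, NR1H2 at -0.35, TSPO at -0.59 and FDXR at 0.44, all as log2 differences. In the second they included GGPS1 at 0.15, INSIG2 at -0.23, VLDLR at -0.995, NR1H2 at -0.29, NR1H3 at -0.24, TSPO at -0.47 and STARD3 at -0.13. None of these passed in limma, whose adjusted p was 0.9999 in the first table and 0.9998 in the second.

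**Figure D2:**
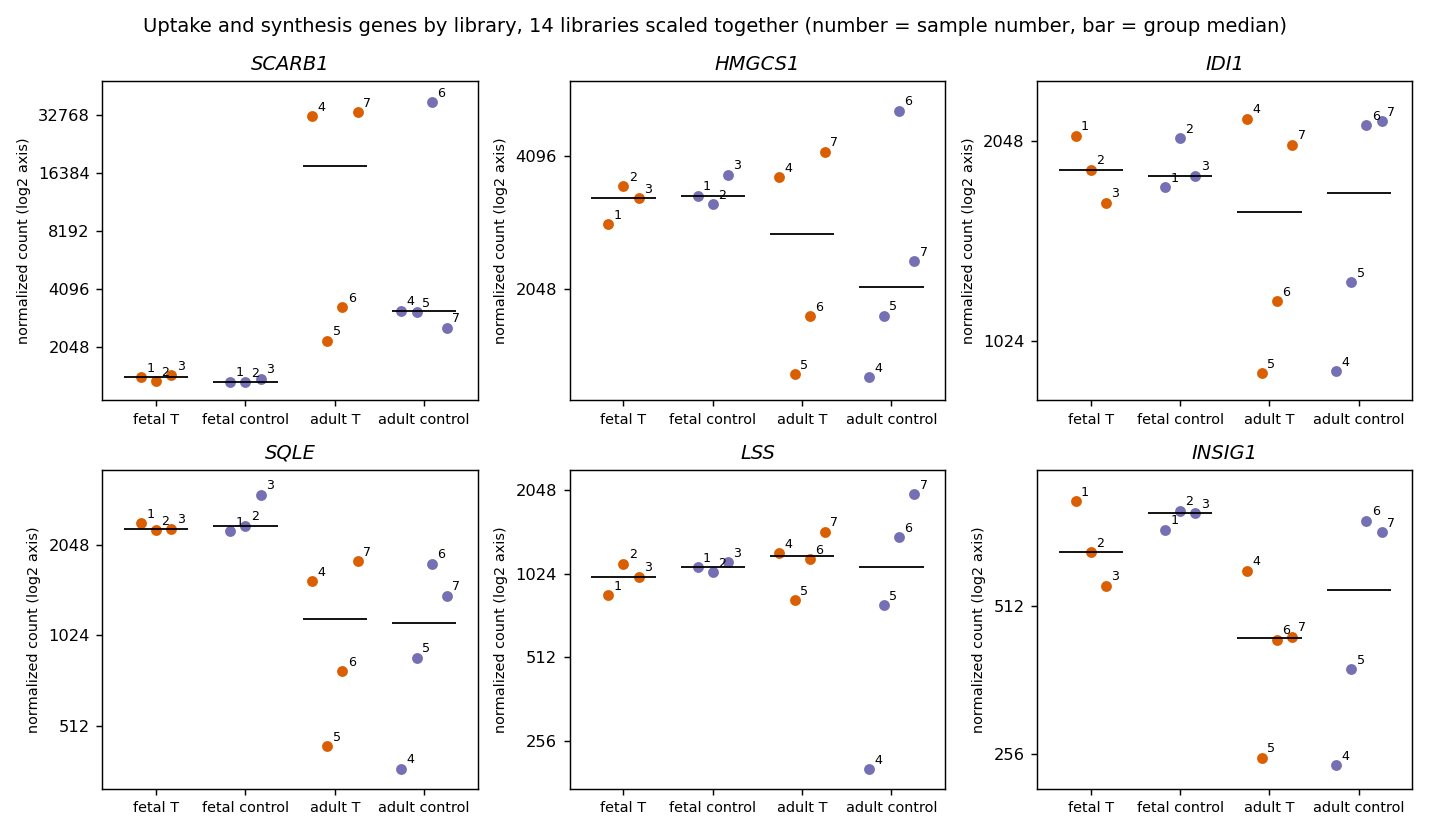
Normalized counts (log axis) of the 6 measured genes in each of the 14 ovaries, all scaled together, with testosterone left of control within each age and adults numbered 4 to 7 (T, testosterone; bar, group median). The 3 adult ovaries high in OXT are highest for SCARB1, HMGCS1 and SQLE among adults, while fetal values lie close together.

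Single adult ovaries differed widely in some of these genes, most of all in SCARB1. SCARB1 varied 16.7-fold over the 8 ovaries, and 92.2% of 15500 genes varied less, against a median over genes of 2.68-fold. LSS varied 9.72-fold, SQLE 4.84-fold, HMGCS1 3.96-fold, INSIG1 3.11-fold and IDI1 2.38-fold. In SCARB1 the lowest of testosterone 4, testosterone 7 and control 6 had 9.64 times the normalized count of the highest of the other ovaries. That ratio was 1.54 for HMGCS1 and 1.11 for SQLE. In LSS, IDI1 and INSIG1 these were not the 3 highest ovaries, because control 7 ranked first in LSS and second in IDI1 and INSIG1.

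These 3 ovaries were thus the 3 highest for 3 of 6 genes of the set, against 14.4% of all genes. They were the 3 highest for 11 of 15 other synthesis enzymes, among them CYP51A1, lanosterol demethylase, with 2141 to 2407 normalized counts against 433 to 1156 in the other 5 ovaries, and ACAT2, a thiolase that joins acetyl-CoA, with 2361 to 2558 against 966 to 1392. NSDHL, a sterol dehydrogenase, had 1830 to 2423 against 720 to 992, and TM7SF2 had 3390 to 4487 against 223 to 530. MVK, GGPS1 and LBR were among the exceptions. Outside synthesis they were the 3 highest for 1 of 9 genes of SREBP control, INSIG2. They were so for 2 of 9 uptake and lysosome genes, NPC1 and LIPA.

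They were also the 3 highest for 3 of 10 efflux and storage genes and 5 of 7 genes of cholesterol use. STAR, which brings cholesterol into mitochondria, had 35001 to 49611 normalized counts in them against 584 to 3396 in the other ovaries. Marker genes of other cell types moved with this pattern. OXT, a luteal marker, is the gene that set these ovaries apart. Of the other luteal markers 7 of 7 measured were highest there, 4 of which also belong to the list of cholesterol use, with sums of 318068 to 392164 normalized counts against 10277 to 67857 in the other 5. Macrophage markers were highest there in 6 of 7 genes, with sums of 24200 to 27484 against 2145 to 6726. Smooth muscle markers were highest there in 0 of 7, with sums of 62429 to 70239 against 141060 to 832266. Theca markers were highest there in 0 of 5, and CYP17A1 had 1.62 to 15.3 normalized counts against 183 to 2811 in the others. No measured gene of these lists was at 0 in every ovary, and the part of these cell types in the levels of the cholesterol genes was not tested.

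**Figure D3:**
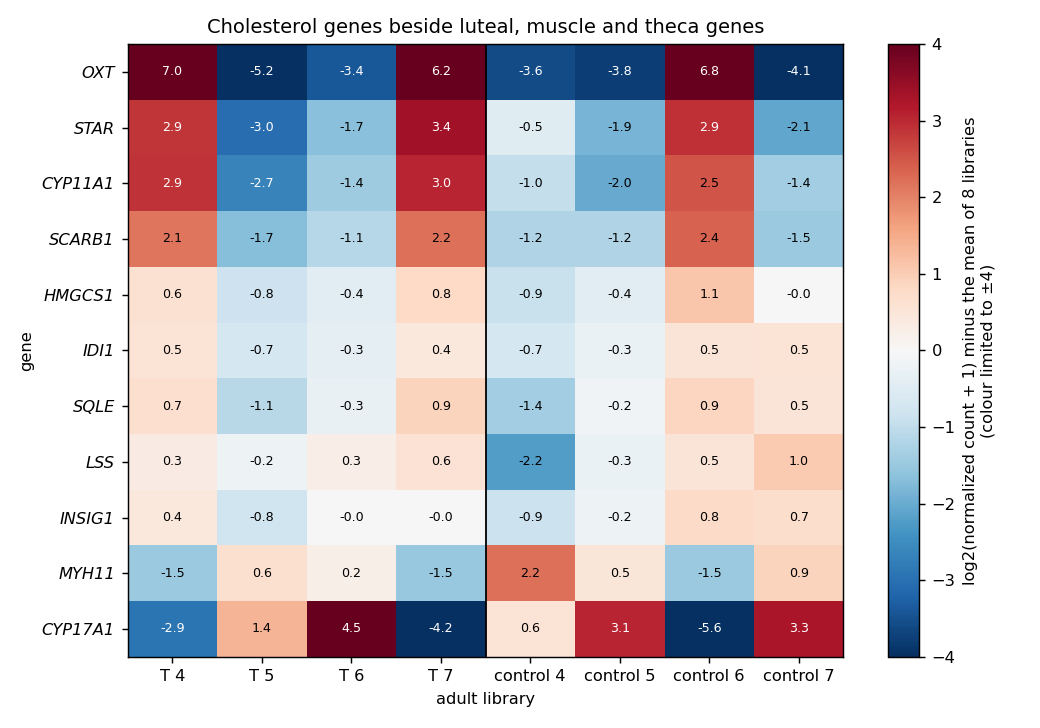
Log2 normalized count of each gene in the 8 adult ovaries minus its mean over them, for luteal genes (OXT, STAR, CYP11A1), the 6 measured genes, MYH11 of smooth muscle and CYP17A1 of theca; colour is limited to ±4. Testosterone 4, testosterone 7 and control 6 are high together in SCARB1, HMGCS1, SQLE and the luteal genes and low in MYH11, and control 4 is lowest in 5 of the 6 genes.

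Likeness between genes was measured as the root-mean-square difference of log2 values over all 14 libraries, each gene centred within fetal and within adult ovaries, so the 3 high ovaries weigh heavily in it. The genes nearest SCARB1 among 11812 named genes were APOA1 at 0.28, AIF1 at 0.29, GRAMD1B at 0.31, IFI30 at 0.31 and ZPR1 at 0.35, where the spread of SCARB1 itself was 1.33. APOA1 encodes the main protein of high-density lipoprotein and AIF1 is a macrophage marker of the list above. AIF1 had 1626 to 2876 normalized counts in the 3 high ovaries against 159 to 289 in the others. The mean of the other 5 measured genes, with a spread of 0.51, had among its nearest genes FDXR at 0.21, CCDC126 at 0.21, FADS1 at 0.22 and NNT at 0.22. In nearness to SCARB1, STAR ranked 154 and HMGCS1 ranked 455 among the named genes. The measure also grows where genes differ in the size of their change, so these ranks do not measure shared pattern alone. Over the adult ovaries STAR varied 85.0-fold, SCARB1 16.7-fold and HMGCS1 3.96-fold.

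The next comparison was between ages, in control ovaries, and it cannot be told apart from any batch that separated fetal and adult libraries. With all 14 libraries scaled together, SCARB1 had 3157, 3093, 37944 and 2577 normalized counts in adult controls 4 to 7 and 1353, 1346 and 1402 in fetal controls 1 to 3. Every adult value was higher than every fetal one, and control 6 was far above the rest. Adult minus fetal was 2.02 ± 1.03 on the log2 scale (SE, 4 adult against 3 fetal, 95% interval -0.20 to 4.24, limma adjusted p = 0.159). Without the 3 ovaries high in OXT it was 1.10 ± 0.150 (SE, 95% interval 0.76 to 1.44, limma adjusted p = 0.000575). The limma fits between ages held all 4 groups, so each SE, interval and p rests on a spread pooled over testosterone and control ovaries. With all libraries that spread was unequal for SCARB1, with an SD of 30.8 normalized counts in fetal and 17503 in adult controls.

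SQLE had 371, 865, 1767 and 1385 normalized counts in adult controls 4 to 7 and 2262, 2360 and 2993 in fetal controls. Every adult control was below every fetal one, and so was every adult testosterone ovary. The log2 difference was -1.42 ± 0.514 (SE, 95% interval -2.53 to -0.31, limma adjusted p = 0.0549), a ratio of 0.374. Without the 3 ovaries it was -1.72 ± 0.405 (SE, limma adjusted p = 0.00942).

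HMGCS1 had 1293, 1782, 5179 and 2364 normalized counts in adult controls and 3329, 3187 and 3711 in fetal controls. Control 6 was above and the other adult controls below all fetal controls. The log2 difference was -0.56 ± 0.444 (SE, limma adjusted p = 0.369), and without the 3 ovaries it was -0.95 ± 0.210 (SE, limma adjusted p = 0.00692). INSIG1 had 242, 380, 763 and 723 in adult controls and 731, 800 and 791 in fetal controls, which overlap through control 6, a log2 difference of -0.70 ± 0.379 (SE, limma adjusted p = 0.184). IDI1 and LSS also overlapped between ages, with log2 differences of -0.29 ± 0.339 and -0.41 ± 0.554 (SE, limma adjusted p = 0.556 and 0.616). Without the 3 ovaries the log2 differences were -0.93 ± 0.363 for INSIG1, -0.46 ± 0.270 for IDI1 and -0.66 ± 0.627 for LSS (SE, limma adjusted p = 0.0705, 0.214 and 0.438).

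Between ages limma called 0 of 6 genes, against 28.3% of all genes. At an unadjusted p under 0.05 there was 1 of 6, against 40.6%. The ages did not overlap for 2 of 6, against 40.5% of all genes, with SCARB1 higher in adults, as were 19.9% of all genes, and SQLE lower, as were 20.6%. The count was 0 with edgeR, against 29.3% of all genes. DESeq2 called 2, SCARB1 higher and SQLE lower, against 37.6%. The log2 difference was below 0 in 5 of 6 genes, against 48.4% of all genes. Without the ovaries high in OXT limma called 3 of 6, with SCARB1 higher and HMGCS1 and SQLE lower, against 36.3% of all genes. Leaving out adult testosterone 5, testosterone 7, control 6 or control 7 alone gave 1 call, SQLE.

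Marker genes moved with age as well. Germ cell markers were lower in adults in 4 of 4 genes measured at both ages and smooth muscle markers higher in 7 of 7, all past the limma threshold. Luteal markers were higher in 8 of 8, with 2 past the threshold, and macrophage markers in 6 of 7, with 1 past it. Their part in the differences of the cholesterol genes was not tested. Over all 4 groups the median normalized count of SCARB1 was 17663 in adult testosterone, 3125 in adult control, 1427 in fetal testosterone and 1353 in fetal control ovaries, and only the step between the ages separates without overlap. The adult testosterone median fell in a gap, with ovaries 5 and 6 at 2205 and 3281 and ovaries 4 and 7 at 32045 and 33679. For SQLE the medians were 1165 in adult testosterone, 1125 in adult control, 2311 in fetal testosterone and 2360 in fetal control ovaries, where treatment groups of the same age overlapped.

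**Figure D4:**
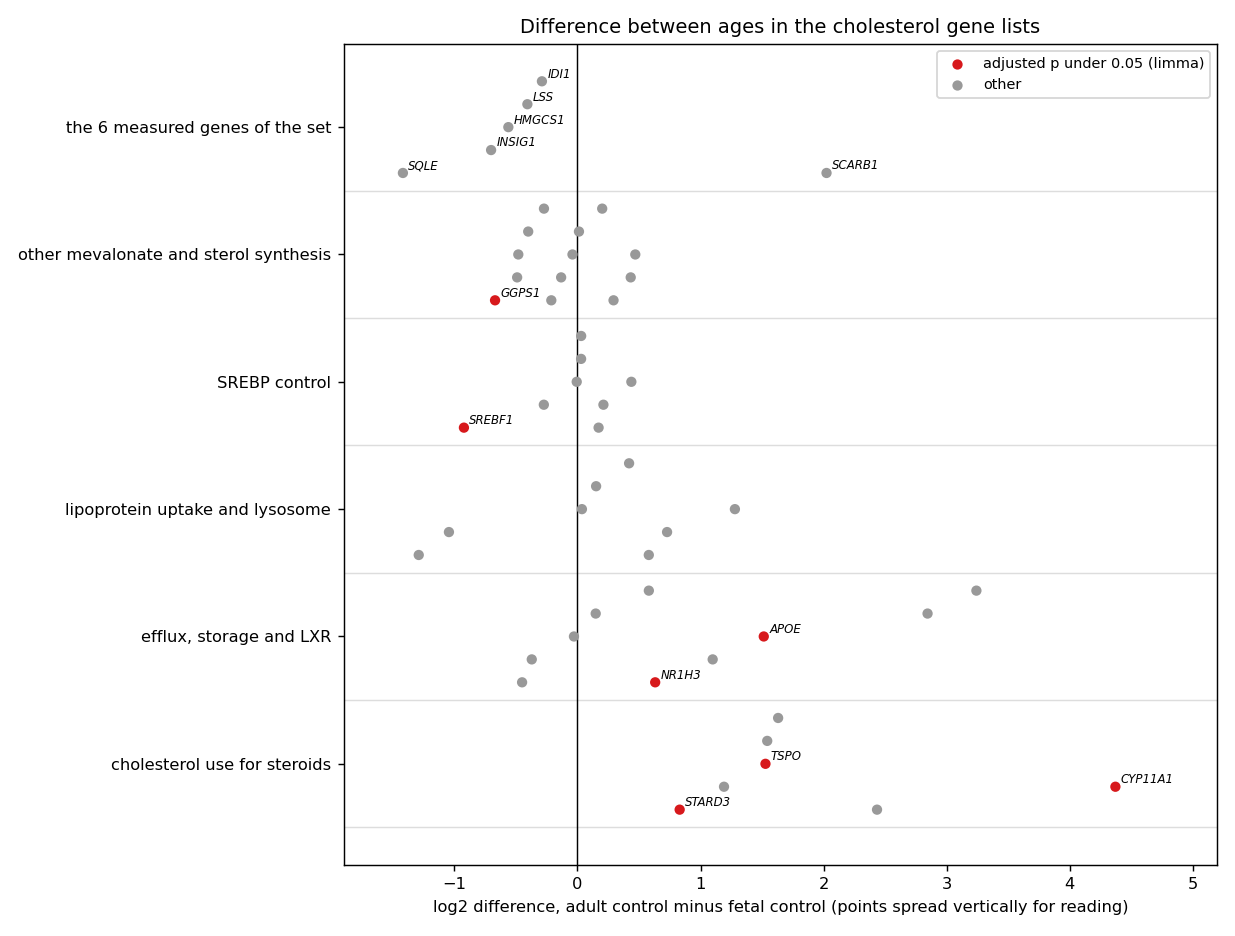
Log2 difference of adult control minus fetal control for measured genes of the cholesterol lists reported here, with genes past the limma threshold in red and names given for these and for the set. The 6 genes of the set lie below 0 except SCARB1, and 7 genes of the other lists are red.

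Among the other cholesterol lists, genes past the threshold between ages were set against 13.3% of all genes that limma called higher in adult controls and 14.9% that it called lower. In the list of other mevalonate and sterol synthesis genes 1 of 15 fell in adult controls. This was GGPS1, which makes geranylgeranyl diphosphate, lower by 0.67 on the log2 scale (limma adjusted p = 0.0174). MVK, mevalonate kinase, had a log2 difference of -0.48 and did not pass. In SREBP control 1 of 9 fell, SREBF1 by 0.92 (limma adjusted p = 0.0235), and SCAP, the SREBP escort protein, had 0.44. In uptake 0 of 9 passed, with 2 of 9 at an unadjusted p under 0.05 and 0 of 9 past the threshold in edgeR and DESeq2, and VLDLR and PDZK1, an SCARB1-binding scaffold, had log2 differences of -1.29 and -1.04.

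In efflux and storage 2 of 10 rose in adult controls, APOE by 1.51 and NR1H3, a sterol-sensing nuclear receptor, by 0.63 (limma adjusted p = 0.00127 and 0.0340). In cholesterol use 3 of 7 rose, STARD3, a late endosomal sterol carrier, by 0.83, CYP11A1 by 4.37 and TSPO, a mitochondrial membrane protein, by 1.53 (limma adjusted p = 0.00423, 0.0291 and 0.0352). The number called depended on the tool and the libraries. Of the 50 genes of the 5 lists, limma called 7, edgeR 11 and DESeq2 15, and limma without the 3 ovaries high in OXT called 16. Of all genes these fits called 28.3%, 29.3%, 37.6% and 36.3%, each a larger share than in the 50 genes. In cholesterol use the counts were 4 of 7 with edgeR, 7 of 7 with DESeq2 and 5 of 7 without the 3 ovaries. In efflux and storage they were 5 of 10 in each of these. In synthesis they were 1, 2 and 2 of 15, in SREBP control 1, 1 and 3 of 9, and in uptake 0, 0 and 1 of 9, in the same order. Median log2 differences were -0.04 in synthesis, 0.03 in SREBP control, 0.15 in uptake, 0.61 in efflux and storage and 1.54 in cholesterol use, against -0.48 in the set itself and 0.03 over all genes.

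A ratio within a library does not depend on scaling, and HMGCS1 was taken as the base after the values were seen. SQLE over HMGCS1 was -1.80 to -0.77 on the log2 scale in the 8 adult ovaries and -0.61 to -0.26 in the 6 fetal ones. The ranges did not overlap, and the means differed by -0.85 (exact two-sided permutation p = 0.000666, the smallest that 8 against 6 allow; 0.00167 after Benjamini-Hochberg adjustment over 5 ratios). SCARB1 over HMGCS1 was 0.12 to 3.13 in adults and -1.40 to -1.01 in fetuses, with the same p. The exact two-sided permutation p of the other ratios was 0.263 for LSS, 0.326 for IDI1 and 0.312 for INSIG1. Within controls alone the p for SQLE and SCARB1 was 0.0571 by the same exact test, the smallest that 4 against 3 allow. After the same adjustment it was 0.143, and neither adjustment covers the choice of HMGCS1 as base. Such ratios show that the numerator and HMGCS1 changed unequally, not which of them changed.

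**Figure D5:**
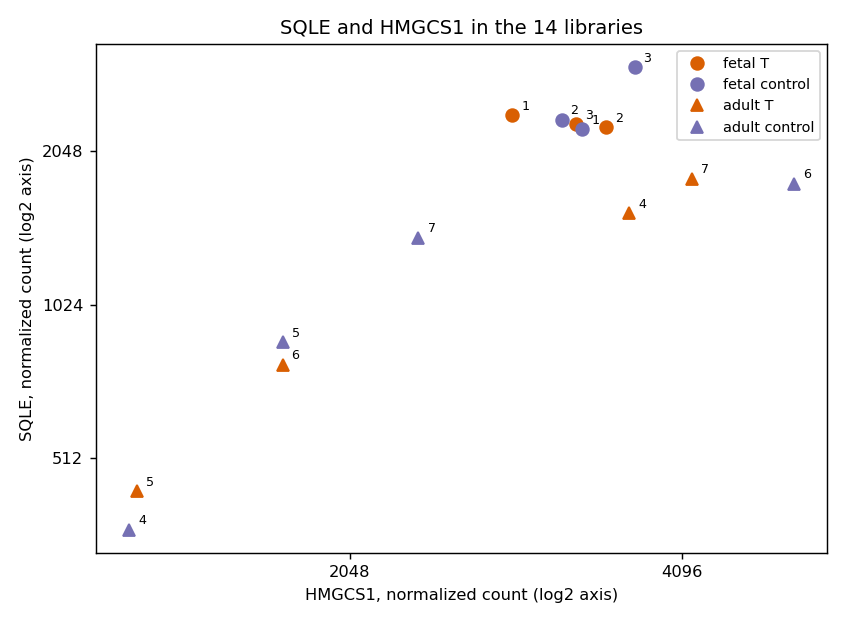
SQLE against HMGCS1 in normalized counts (log axes), 1 point per ovary, with adults numbered and treatment and age by colour. The log2 ratio of SQLE to HMGCS1 is -1.80 to -0.77 in the adult ovaries, below the -0.61 to -0.26 of the fetal ones.

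The last comparison asked whether the testosterone difference itself differed between adult and fetal ovaries, and no gene of the set passed. The log2 difference between the adult and the fetal effect was 0.71 ± 1.45 for SCARB1, 0.17 ± 0.628 for HMGCS1, -0.04 ± 0.479 for IDI1, 0.18 ± 0.727 for SQLE, 0.61 ± 0.783 for LSS and -0.01 ± 0.536 for INSIG1 (SE, limma adjusted p = 0.9999 for each). Limma and edgeR called 0 of 6, each against 0.00659% of all genes, and DESeq2 0 of 6, against 0.0659%. At an unadjusted p under 0.05 limma had 0 of 6, against 1.57%. Without the 3 ovaries limma called 0 of 6, against 0.0066%, and the values for SCARB1, HMGCS1 and SQLE turned to -0.17, -0.12 and -0.27.

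In the other lists the genes of smallest p for this difference were PMVK at 0.51, HSD17B7 at -0.38, MBTPS2 at 0.35, MBTPS1 at -0.30, NPC1 at 0.73, LIPA at 1.16, ABCA1 at 0.91, SOAT1 at 0.53, CYP11A1 at 3.20 and HSD3B1 at 1.90 on the log2 scale. None passed in limma, where the adjusted p was 0.9999, and edgeR and DESeq2 called 0 of 50. For SCARB1 the 95% interval was -2.43 to 3.85 with all libraries and -0.68 to 0.33 without the 3 ovaries.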

How the data were processed

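Total RNA of whole ovaries was sequenced from libraries made with 500 ng of RNA as paired reads of 150 bases, with 45 to 50 M reads per sample, per the labels' protocols. The submitters' processing notes name Trimmomatic 0.36, a read trimmer, and STAR 2.5.2b, an aligner, and the series text names DESeq2. No source used here names the counter, the genome build or its annotation, so no coordinates are printed. The deposited signal is a normalized count per gene and library, which the authors made by dividing reads by a size factor. The authors also deposited log2 fold changes and p-values for each of 3 tables, which were used only where named.

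Dividing each column by its smallest step gave whole reads for 100% of values, within 0.01 of a read, in all libraries. The first and second adult tables share 4 libraries. Control 6 had 26.4 M reads in the first and 33.4 M in the second, and the fuller set was used. For the 8 adult and the 14 libraries together, recovered reads were scaled by median-of-ratios size factors over the 15773 and 15175 genes shared. The adult controls labelled are 4, while the series text counts 3.

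Genes averaging at least 10 normalized counts were fitted with limma 3.58.1 (R 4.3.3, eBayes with a trend) as log2(normalized count + 1), and a gene was called at a Benjamini-Hochberg adjusted p under 0.05 over all genes. Fold changes are on that scale. edgeR 4.0.16 and DESeq2 1.42.0 were run on the recovered reads, and the limma fit was tested on simulated data. Every member is named. Of the other lists, genes past the threshold are named, or else the 2 of smallest p per list and comparison. Some genes that the rule or the likeness measure selects are not reported here. The genes, lists and rules were chosen with earlier results of these data known. The comparison without adult ovaries above 1000 normalized counts of OXT, the genes in which they stand highest and the ratios were chosen after seeing the data. A promoter motif search was not run. Same-numbered samples did not deviate together in every pair (correlations of 0.13, 0.0093 and 0.40 in fetuses and of -0.64 to 0.30 in adults), so the numbers were not taken as pairs.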

Additional observations from a re-analysis of the deposited data

Results flagged for a closer look

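Each of the 6 measured genes was tested for a value apart from the rest in the 2 adult groups of 4 ovaries. Of these 12 tests, which reuse the same ovaries, 1 passed. SCARB1 in adult control 6 stood above the other 3 controls by 0.983 of the range of the group, past Dixon's 95% critical value for 4 samples. Chance passes about 1 test in 20 for independent, normally spread values, a rate that need not hold for shared ovaries and unlogged counts. The same ovary had 94884 normalized counts of OXT and 2 testosterone ovaries had SCARB1 at a like level, so the group of testosterone ovaries, split 2 and 2, did not pass. The part of luteal tissue in this value was not tested.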

How the results depend on the processing

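No gene of the set was called in the testosterone comparisons or in the difference between ages of that effect under any alternative run, including each library left out (0 to 0 calls). Between ages the count was 0, but 1 with quantile normalization, 2 with DESeq2, 3 without the ovaries high in OXT, and 0 to 1 with each library left out. With the sample number as a replicate block no count moved, and in the second adult table the log2 differences turned to 0.093 for SCARB1 and -0.35 for LSS. Other signs that turned were of values within error of 0. Quantile normalization gave IDI1 0.0084 in fetuses and 0.025 in the first adult table. For LSS in the second adult table edgeR gave -0.042 and DESeq2 -0.046, and between ages DESeq2 gave 0.0094. For IDI1 in the difference of effects edgeR gave 0.0026. With luteal markers as a covariate the adult differences were -0.16 for HMGCS1, -0.15 for SQLE and 0.09 for SCARB1. Without the ovaries high in OXT they were -0.11 for SCARB1, -0.19 for HMGCS1 and -0.37 for SQLE, and the differences of effects were -0.17, -0.12 and -0.27. The cause of these changes was not tested.

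Leaving out each library in turn gave the following log2 ranges where a sign turned. In fetuses they were -0.091 to 0.079 for IDI1 and -0.18 to 0.014 for SQLE. In the first adult table they were -1.41 to 0.98 for SCARB1, -0.57 to 0.43 for HMGCS1, -0.38 to 0.31 for IDI1, -0.60 to 0.52 for SQLE, -0.011 to 1.38 for LSS and -0.39 to 0.41 for INSIG1. In the second they were -1.30 to 1.14 for SCARB1, -0.69 to 0.31 for HMGCS1, -0.86 to 0.30 for SQLE and -0.55 to 1.08 for LSS. With all 8 adults they were -0.19 to 0.48 for HMGCS1, -0.29 to 0.18 for IDI1, -0.37 to 0.46 for SQLE, -0.18 to 0.91 for LSS and -0.52 to 0.039 for INSIG1. Between ages the range was -0.83 to 0.26 for LSS. For the difference of effects they were -0.11 to 0.56 for HMGCS1, -0.28 to 0.20 for IDI1, -0.26 to 0.57 for SQLE, -0.051 to 1.04 for LSS and -0.33 to 0.23 for INSIG1. Where no sign turned, single libraries still moved values by over 1.5 times. SCARB1 ranged 0.15 to 1.68 with all 8 adults and 0.095 to 1.63 for the difference of effects, lowest without testosterone 7 and highest without control 6, and 1.10 to 2.39 between ages, lowest without control 6. Between ages HMGCS1 ranged -0.95 to -0.28 and INSIG1 -0.93 to -0.38, without control 6 and control 4, and IDI1 -0.46 to -0.045, without control 7 and control 4. SQLE between ages ranged -1.72 to -0.97, without control 6 and control 4. In the second adult table IDI1 ranged -0.73 to -0.081 and INSIG1 -1.01 to -0.19. In fetuses INSIG1 ranged -0.34 to -0.054, HMGCS1 -0.15 to -0.0017 and LSS -0.23 to -0.032. No block could be fitted between ages, where numbers are not shared. With 3 or 4 ovaries a group, and adult ovaries that differ by state, small testosterone effects were not detectable in adults. Large ones were not excluded for every gene. The limma interval of SCARB1 with all 8 adults, given above, was wide enough to hold large effects in both directions. Without the ovaries high in OXT the limma interval was -0.72 to 0.50 for SCARB1 but -1.83 to 2.87 for LSS.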

Other observations

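Genes that store and move cholesterol, outside the set, also differed between adult ovaries. APOA1, of high-density lipoprotein, had 83688 and 71402 normalized counts in testosterone 4 and 7 and 100689 in control 6. In the other 5 adult ovaries it had 3528 to 4972. PLIN2, a coat protein of lipid droplets, had 52892 to 53949 in those 3 ovaries and 2021 to 16675 in the rest. LIPA, the lysosomal acid lipase, had 10347 to 20555 against 1019 to 3086, and SOAT1, which esterifies cholesterol, had 855 to 909 against 327 to 422.

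In contrast, SREBF2, which encodes the SREBP that drives the synthesis genes, had 3939 to 6702 normalized counts in the 3 ovaries and 4725 to 8597 in the other 5, so the ranges overlapped. MBTPS1, a protease that activates SREBP, had 5172 to 6415 against 9148 to 10989, and SREBF1 had 961 to 1185 against 1398 to 2291. The genes of these paragraphs were picked once their values were known, and the contrast between the 3 ovaries and the others carries no test.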
